A study of Mus musculus with 24 samples.

Results

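The right striatum/thalamus and the right cerebellum of uninjured mouse pups were compared at postnatal day 9 with the Neuroinflammation panel of the nCounter system, which counts single barcoded probes bound to RNA without amplifying them. The comparison used 8 of the 24 libraries of the series, chosen by their labels alone: sham surgery, and right striatum/thalamus (n = 4) or right cerebellum (n = 4). All pups were of the CD1 strain and of both sexes. Sham pups had anesthesia, local bupivacaine and neck dissection with no vessel ligation, recovered for 2 h with the dam, spent 30 min apart from the dam in warm room air, and were euthanized 30 min later, so both regions carried the same handling. Sham pups were numbered 2, 3, 6 and 8, and each gave both regions, so that the regions were compared within pup. The injured pups (hypoxic-ischemic brain injury, HIBI, pups 1, 4, 5 and 7) underwent cautery of the right carotid artery and then 30 min at 8% oxygen. Their 8 libraries of the same regions were used to measure the region difference a second time, to test the difference between arms, and in 1 alternative fit. The striatum and the thalamus were taken as 1 piece and cannot be told apart here, and each piece held all cell types of the tissue.

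At this age the cerebellum is still being built. Granule cell precursors divide in its external layer before they move inward, and cells of this lineage secrete reelin, which helps to place Purkinje cells, while most neurons of the striatum and the thalamus were made before birth and are forming synapses. Myelination runs through the hindbrain before it reaches the forebrain, and microglia, the resident macrophages of the brain, are spreading through both regions. In bulk tissue, fewer cells of a type and less RNA per cell cannot be told apart.

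Total counts per library ranged from 935799 to 1079072. Libraries of the same region correlated at r = 0.986 to 0.996 across genes and libraries of different regions at r = 0.931 to 0.967, on log2 normalised counts. No 2 libraries of a region agreed within counting error, with a chi-square of at least 5.32 per degree of freedom. Between 606 and 647 of the 757 endogenous genes lay above the background of their library, taken as the mean plus 2 SD of its 8 negative control probes, a limit of 29.5 to 43.5 counts.

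The region labels were checked with marker genes, of which the panel held few. Dlx1, a homeobox factor of the GABAergic lineage of the striatum, stood at 683, 444, 358 and 717 normalised counts in the striatum/thalamus of pups 2, 3, 6 and 8, and at 16.5, 20.1, 29.8 and 22.8 in their cerebella. A normalised count is the count divided by the scaled size of its library, at the geometric mean size of the 8 libraries. All 4 cerebellar values of Dlx1 were at background, so the difference was at least 16.3-fold (adjusted p = 4.69e-06, edgeR quasi-likelihood test). Dlx2, its close relative, was at background in every cerebellum too and at 30.9 to 69.8 in the striatum/thalamus, at least 1.45-fold higher (adjusted p = 0.000202). The lowest striatum/thalamus value of Dlx2 was itself at background, with limits of 34.9 to 43.5 counts in that region.

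Eomes, a T-box factor of unipolar brush cells in the cerebellum, stood at 814, 540, 329 and 675 normalised counts in the cerebella of pups 2, 3, 6 and 8 and at background in every striatum/thalamus library, with 19.4 to 42.1. The cerebellum was at least 13.7-fold higher (adjusted p = 2.33e-06). Reln, which encodes reelin, was 2656, 2591, 2156 and 2243 in the cerebella and 507, 653, 531 and 662 in the striatum/thalamus. Every cerebellum was above every striatum/thalamus library for Reln, and the difference was 4.11-fold (log2 -2.04, SE 0.10, adjusted p = 4.69e-06). Both cerebellar markers and both striatal markers on the panel thus lay in the region of their label. Other defining markers of the written lists, such as dopamine receptors and GABA-synthesizing enzymes of the striatum, were not among the panel genes.

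The vesicular glutamate transporters parted the regions in opposite directions. Slc17a6 (VGLUT2), the transporter of thalamic projection neurons, was 12458, 13772, 14505 and 14233 normalised counts in the striatum/thalamus of pups 2, 3, 6 and 8 and 2615, 3546, 5539 and 4722 in the cerebella. The regions did not overlap, and the striatum/thalamus was 3.47-fold higher (log2 1.80, SE 0.13, adjusted p = 2.49e-05). Slc17a7 (VGLUT1), used by cerebellar granule cells and by the cortex, was 1262, 1468, 1381 and 1233 in the striatum/thalamus and 3268, 2478, 2143 and 2960.5 in the cerebella, 2.01-fold higher in the cerebellum (adjusted p = 0.000316). Among other genes written as cortical markers, Tbr1 (93.8 ± 17.7 against 43.1 ± 4.97 normalised counts, SD, n = 4) and Mef2c (2.39-fold) were higher in the striatum/thalamus.

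The cerebellum libraries were less alike than those of the striatum/thalamus. Across the panel, pairs of cerebella differed by a chi-square of 11.7 to 42.7 per degree of freedom. Pairs of striatum/thalamus libraries differed by 5.32 to 12. In several genes and lists, though not in all, the cerebella of pups 2 and 3 stood apart from those of pups 6 and 8. The chi-squares across the panel did not part the cerebella this way, at 22.9 for pups 2 and 3, 11.7 for pups 6 and 8 and 12.1 for pups 3 and 8. Ttr, the thyroid hormone carrier made by the choroid plexus, was 8192, 3773, 138 and 2912 normalised counts in the cerebella of pups 2, 3, 6 and 8, against 84.1, 74.4, 75.6 and 159 in the striatum/thalamus. The cerebellum of pup 6 lay below the striatum/thalamus of pup 8, so the regions overlapped for Ttr, and the fitted difference was 25.2-fold (log2 -4.66, SE 0.83, adjusted p = 0.00169). The Ttr log2 fold change was -5.44 without pup 6 and -3.93 without pup 2. Nrgn, neurogranin, a calmodulin-binding protein of forebrain dendrites, was 136 and 168 in the cerebella of pups 2 and 3 but 1055 and 1082 in those of pups 6 and 8, against 1269, 1998, 1310 and 1325 in the striatum/thalamus. Slc17a6 had the same split, with its lowest cerebellar values in pups 2 and 3. What tissue entered each cerebellar piece was not tested, and these values stand beside the neuronal results below.

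Of 725 genes with enough counts to be tested, 235 (32.4%) were higher and 237 (32.7%) were lower in the striatum/thalamus at an adjusted p under 0.05. A difference of 2-fold or more was met by 48 higher genes (6.62%) and by 64 lower genes (8.83%). With the negative control mean subtracted, a step that acts most on low counts, the higher ones at 2-fold were 80. The genes called higher at any fold were then 232 rather than 235. Many differences were small, and 216 of the 472 called genes differed by less than 1.5-fold. The 8 libraries were fully apart by region for 426 of the 472 called genes, and 466 had the same sign in all 4 pups. Both counts are among genes picked by the test of these same libraries, so they describe the calls and add no test. The median log2 fold change (striatum/thalamus minus cerebellum) over all genes tested was 0.05. The gene lists below are read beside these shares and this median.

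**Figure D1:**
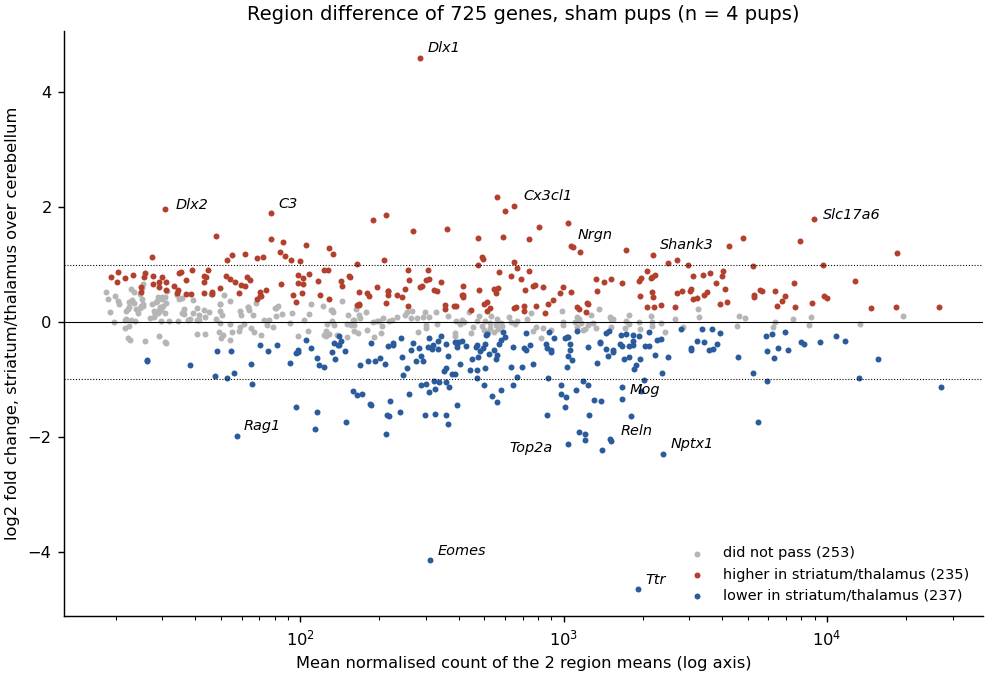
Log2 fold change between regions (striatum/thalamus over cerebellum, vertical) against mean normalised count (horizontal, log axis) for the 725 genes tested in 4 sham pups; colours mark genes that passed at an adjusted p under 0.05 and dotted lines a 2-fold difference. Dlx1 stands highest, Eomes and Ttr lowest, and called genes at the lowest counts are mostly higher in the striatum/thalamus.

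Genes of low counts leaned to the striatum/thalamus. Of 186 tested genes under 100 normalised counts in both regions, 54 were called higher and 14 lower. The mean of the 8 negative control probes, which match no mouse RNA, was itself higher in the striatum/thalamus of every pup after scaling, at 20.3 to 26.6 against 18.2 to 21.3 in the cerebella, a log2 difference of 0.31. Of the 44 tested genes at background in both regions, 10 were called higher and 0 lower by edgeR, with a median log2 fold change of 0.34. The median of these genes was close to the shift of the negative controls, and the part of that shift in their calls was not tested.

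Genes of cell division were higher in the cerebellum. Of 29 cell cycle and DNA replication genes tested, 0 were higher and 26 were lower in the striatum/thalamus, 15 of them by 2-fold or more, with a median log2 fold change of -1.03. Top2a, the topoisomerase that untangles DNA of dividing cells, was 1896, 1906, 1432 and 1519 normalised counts in the cerebella of pups 2, 3, 6 and 8 and 420, 408, 373 and 335 in the striatum/thalamus. The regions were far apart for Top2a, at 4.38-fold (log2 -2.13, SE 0.07, adjusted p = 1.03e-06). Mcm5, a subunit of the helicase that opens DNA for replication, was 620.2, 570.2, 518 and 461 in the cerebella and 188, 163, 175 and 178 in the striatum/thalamus, 3.07-fold apart. Lmnb1 (lamin B1 of the nuclear envelope) was 4.15-fold, Kif2c (a kinesin of the mitotic spindle) 3.33-fold and Ezh2 (the methyltransferase of Polycomb complex 2) 3.08-fold higher in the cerebellum. Averaged over the list, the cell cycle genes were 0.40 to 0.70 log2 units above their 8-library mean in the cerebella and 0.45 to 0.55 below it in the striatum/thalamus, and pups 2 and 3 had the highest cerebellar values.

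The promoters of 5 of these genes are printed because the list moved as a group, so that motifs known from cell cycle promoters can be seen in them. They were taken by largest fold from the members lower by 2-fold or more. Only promoters with a motif within 150 bases of the start site were taken. Genes of 1 chromosome were left out whatever their motifs. Not every such gene is therefore shown, and a gene absent here can hold a motif. Each line holds the 150 bases before the RefSeq start site (build GRCm38.p6), 5′ to 3′ on the gene's strand. Capitals mark the E2F-type motif TTTNNCGC or the cell cycle homology motif TTTGAA, on either strand (GCGNNAAA or TTCAAA).
Top2a, chr11:99024190-99024339, minus strand: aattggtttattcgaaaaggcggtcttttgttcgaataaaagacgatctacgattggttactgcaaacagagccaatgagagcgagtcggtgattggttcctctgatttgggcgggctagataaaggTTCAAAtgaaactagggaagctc
Kif2c, chr4:117178773-117178922, minus strand: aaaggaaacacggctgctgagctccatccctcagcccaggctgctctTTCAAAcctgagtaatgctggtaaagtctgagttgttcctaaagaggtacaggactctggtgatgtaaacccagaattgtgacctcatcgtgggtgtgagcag
Mcm5, chr8:75109359-75109508, plus strand: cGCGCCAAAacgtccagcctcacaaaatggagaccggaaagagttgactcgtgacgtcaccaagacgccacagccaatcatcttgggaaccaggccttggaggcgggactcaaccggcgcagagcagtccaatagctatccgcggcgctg
Cks1b, chr3:89418292-89418441, minus strand: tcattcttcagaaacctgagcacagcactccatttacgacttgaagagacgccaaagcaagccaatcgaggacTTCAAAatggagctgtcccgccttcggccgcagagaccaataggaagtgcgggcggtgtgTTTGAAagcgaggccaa
Mcm2, chr6:88898781-88898930, minus strand: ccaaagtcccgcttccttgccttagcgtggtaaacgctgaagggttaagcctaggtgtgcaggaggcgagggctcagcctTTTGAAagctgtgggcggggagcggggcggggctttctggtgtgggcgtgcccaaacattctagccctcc
The E2F-type motif was found in the 300-base windows (250 before to 50 after the start) of 7 of 25 cell cycle genes with a window (28%), against 7.26% of the 565 tested genes with a window and 5.27% of all 27025 symbols. The cell cycle homology motif was found in 28% of the list, in 5 of the 12 members lower by 2-fold or more that had a window (41.7%), in 13.3% of the tested genes and in 18.1% of all symbols. The E2F-type motif was in 3 of those 12 windows (25%), a share no higher than that of the whole list. Among tested genes higher by 2-fold or more, 1 of 36 windows (2.78%) held the E2F-type motif and 5 (13.9%) the other. Of the printed promoters only that of Mcm5 held the E2F-type motif and the other 4 held the cell cycle homology motif, so no match overlapped one of the other kind. A match describes letters, not binding. Cks1b, a partner of cyclin-dependent kinases (2.73-fold), and Mcm2, a helicase subunit (2.71-fold), were named for their promoters, after their values were seen.

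Genes of DNA damage sensing and repair followed the same direction. Of 36 tested, 0 were higher and 31 lower in the striatum/thalamus (median log2 -0.48), and 5 of them are also on the cell cycle list. Brca1, which repairs breaks by homologous recombination, was 2.96-fold higher in the cerebellum. Trp73, a relative of p53, was 2.41-fold higher, and Fancd2, of the crosslink repair pathway, stood at 60.5 to 77.0 normalised counts in the cerebella and 32.3 to 43.6 in the striatum/thalamus, where 3 of 4 libraries were at background. Parp1, the sensor of strand breaks, missed the threshold narrowly, at log2 -0.15 (SE 0.06, adjusted p = 0.0505), and passed with limma-voom (adjusted p = 0.0416), with no filter (0.0461) or without the pup block (0.0371). Parp1 did not pass with DESeq2 (adjusted p = 0.0518), with library totals (0.0526) or with reference-gene scaling (log2 -0.055, adjusted p = 0.428).

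Of 57 chromatin and transcription regulators, 6 were higher and 35 lower in the striatum/thalamus (median log2 -0.32). The mean level of the list in the cerebella was 0.25 and 0.31 log2 units above its 8-library mean in pups 2 and 3 but 0.07 above it in both pups 6 and 8. In the striatum/thalamus of pups 2, 3, 6 and 8 the level was -0.16, -0.02, -0.30 and -0.21. The striatum/thalamus of pup 3 thus lay close to the cerebella of pups 6 and 8. Kat2b, a histone acetyltransferase, differed most after Ezh2, at 1485 ± 157 normalised counts in the cerebellum and 534 ± 33.2 in the striatum/thalamus (2.77-fold). Suv39h2, which methylates histone H3 in silent chromatin, was 2.13-fold, Bmi1, of Polycomb complex 1, 2.13-fold and Dnmt3b, a DNA methyltransferase with 2 of 4 striatum/thalamus libraries at background, 2.12-fold higher in the cerebellum. In this list 7 genes were lower by 2-fold or more and 0 were higher by that much, and 4 genes of the list are also on the cell cycle list, Ezh2 among them.

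**Figure D2:**
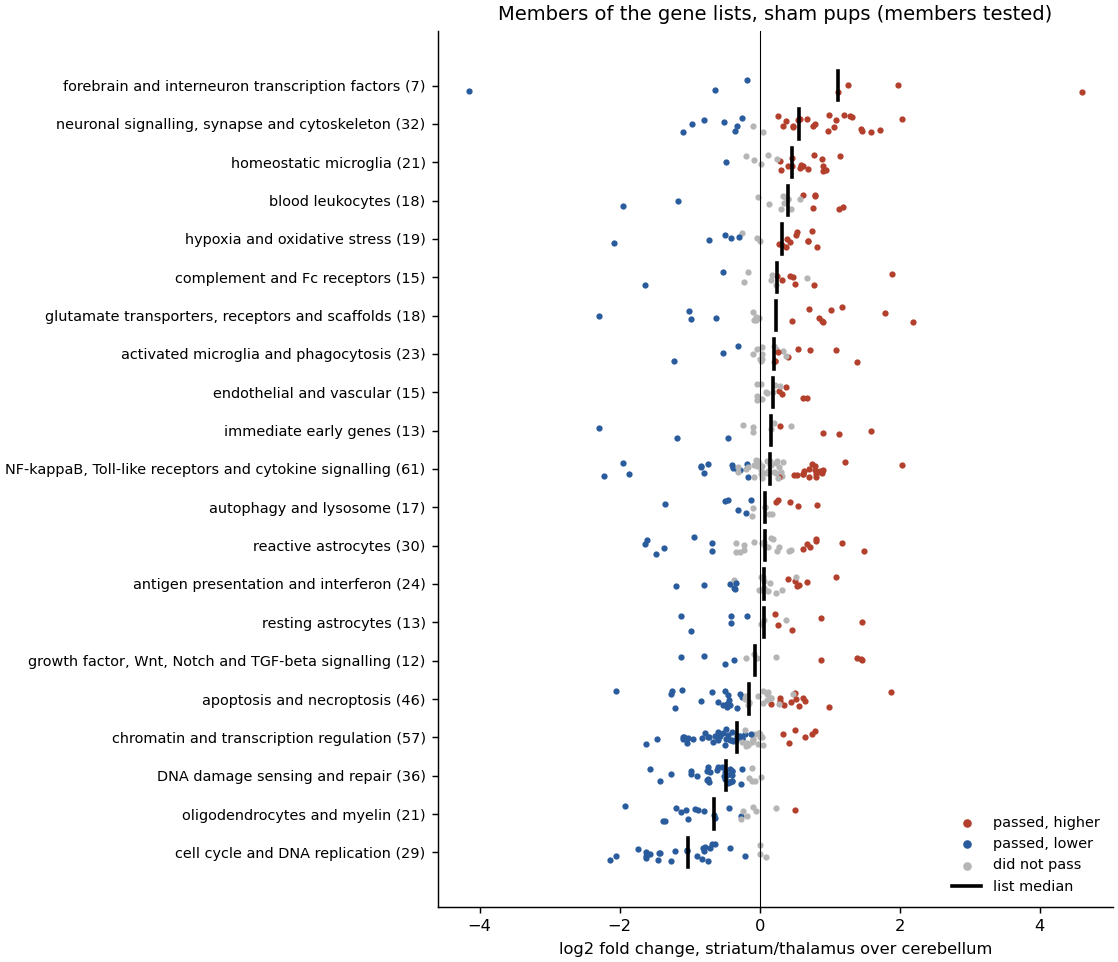
Log2 fold change (striatum/thalamus over cerebellum) of every tested member of the gene lists with 5 or more tested members, sorted by list median (black bar), with the number tested in parentheses; red and blue points passed the test and grey points did not. Cell cycle genes lie lowest (median -1.03), and the neuronal list lies well above 0 (median 0.57).

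Neuronal genes were mostly higher in the striatum/thalamus. Of 32 genes of neuronal signalling, synapse and cytoskeleton, 23 were higher and 7 lower (median log2 0.57), with 10 higher by 2-fold or more. The cerebellar list level was -0.42 and -0.38 log2 units in pups 2 and 3 and -0.09 and -0.23 in pups 6 and 8. Cx3cl1, fractalkine, the ligand by which neurons signal to microglia, was 981, 1153, 999.7 and 1003 normalised counts in the striatum/thalamus of pups 2, 3, 6 and 8 and 134, 247, 389 and 294 in the cerebella. The regions were apart for Cx3cl1 in every pup, at 4.08-fold (log2 2.03, SE 0.22, adjusted p = 0.00013), with the lowest cerebellar values again in pups 2 and 3. The neurotrophin Bdnf was 3.01-fold higher (402 ± 51.2 against 134 ± 30.1 normalised counts), as was Fgf13, a regulator of sodium channels, by 2.75-fold (7050 ± 166 against 2584 ± 418). Nrgn passed (log2 1.72, SE 0.62, adjusted p = 0.0398), but not without pup 2 (log2 1.22, adjusted p = 0.0974), without pup 3 (log2 1.11, adjusted p = 0.128) or without the pup block (log2 1.28, adjusted p = 0.0796).

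Glutamate receptors and their scaffolds differed in both directions, with 9 of 18 higher, 4 lower and a median log2 of 0.23. Grm2, a presynaptic metabotropic receptor that limits release, was 783, 992, 911 and 976 normalised counts in the striatum/thalamus and 167, 168, 259 and 217 in the cerebella, 4.55-fold higher (adjusted p = 6.05e-06). Shank3, a scaffold of the excitatory postsynapse, varied little among pups, with 2966 to 3078 in the striatum/thalamus and 1249 to 1396 in the cerebella, 2.25-fold apart (log2 1.17, SE 0.05). Grin2b, the NMDA receptor subunit of young synapses, was 2.03-fold higher in the striatum/thalamus. Nptx1, a secreted pentraxin that clusters AMPA receptors, went the other way, with 5025, 3383, 3123 and 4368 in the cerebella and 815, 894, 693 and 794 in the striatum/thalamus, 4.91-fold higher in the cerebellum (adjusted p = 4.69e-06). Gria2, the AMPA receptor subunit that sets calcium permeability, was 6047 ± 542 in the striatum/thalamus and 6390 ± 228 in the cerebellum, log2 -0.08 with an adjusted p of 0.233.

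Other genes of large difference were on no neuronal list. Higher in the striatum/thalamus were Arhgap24, which switches off Rac (3.81-fold), Hrk, a cell death activator of neurons (3.66-fold), St8sia6, a sialyltransferase (3.43-fold), Lrrc3 (3.17-fold) and Nrp2, a semaphorin receptor of growing axons (3.07-fold). Higher in the cerebellum were Map3k1, a kinase upstream of JNK (4.66-fold), Ccng2, a cyclin that slows the cycle (4.22-fold), and Cd24a, a surface protein of immature neurons and of blood cells (3.88-fold). Rag1, the recombinase of lymphocytes that is also transcribed in some neurons, was 91.6 ± 14.5 normalised counts in the cerebellum and at background in the striatum/thalamus, at least 2.22-fold lower there.

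**Figure D3:**
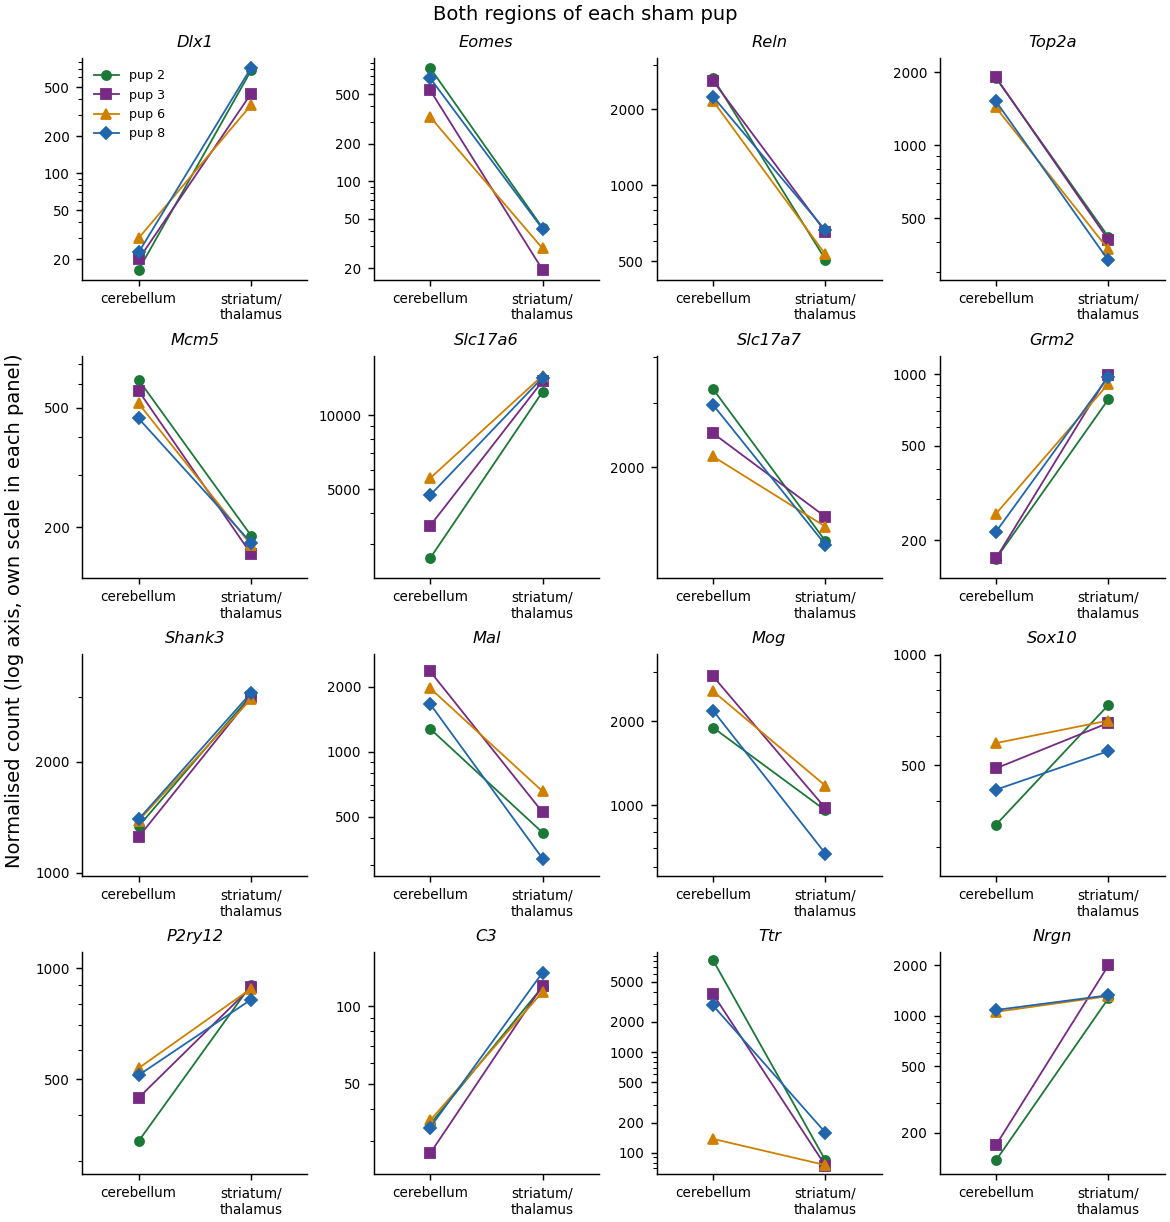
Normalised counts (log axis, with its own scale in each panel) of 16 genes in the cerebellum and the striatum/thalamus of sham pups 2, 3, 6 and 8; a line joins the regions of 1 pup. Within each panel the 4 lines run the same way, with the cerebella of pups 6 and 8 high for Nrgn (1055 and 1082) and that of pup 6 low for Ttr (138). Many of these genes were named by a rule that requires the same sign in all 4 pups, so the shared direction adds no test.

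Myelin genes were higher in the cerebellum. Of 21 oligodendrocyte and myelin genes, 1 was higher and 14 were lower in the striatum/thalamus, 7 by 2-fold or more (median log2 -0.66). Mal, a proteolipid of compact myelin, was 1276, 2352, 1964 and 1661 normalised counts in the cerebella of pups 2, 3, 6 and 8 and 423, 525, 656 and 321 in the striatum/thalamus, 3.79-fold higher in the cerebellum (log2 -1.92, SE 0.14, adjusted p = 2.28e-05). Mog, a surface protein of the outer myelin sheath, was 1901, 2905, 2568 and 2189 in the cerebella and 959, 976, 1175 and 671 in the striatum/thalamus, 2.54-fold apart (adjusted p = 5.98e-05). For both genes the regions did not overlap, and pups 3 and 6 had the highest values in either region. The mean level of the list was closer between regions in some libraries. In the cerebella of pups 2, 3, 6 and 8 it was 0.008, 0.53, 0.53 and 0.235 log2 units from its 8-library mean. In the striatum/thalamus it was -0.28, -0.29, -0.07 and -0.67. Gjb1, the gap junction protein connexin 32 (2.60-fold), and the actin-severing protein Gsn (2.29-fold) were higher in the cerebellum too.

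The member called higher was Sox10, the transcription factor of the whole oligodendrocyte lineage, precursors included, which is named after its values were seen. Sox10 was 730, 653, 662 and 547 normalised counts in the striatum/thalamus and 345, 491, 575 and 430 in the cerebella. It was higher in the striatum/thalamus of each of the 4 pups (1.42-fold, log2 0.51, SE 0.14, adjusted p = 0.0126), although the regions overlapped across pups. Bcas1, which marks newly formed oligodendrocytes, missed the threshold at log2 0.24 (SE 0.09, adjusted p = 0.0507), although all 4 pups had the higher value in the striatum/thalamus. Bcas1 passed with reference-gene scaling (adjusted p = 0.0146), with limma-voom (0.0464), with a filter at the negative control limit (0.03), with the negative mean subtracted (0.0171), without pup 8 (0.0294) and with pups 2 and 3 alone (0.0259), which made 2 members higher. Bcas1 did not pass with DESeq2 (adjusted p = 0.0612), with library totals (0.0502) or without the pup block (0.122). Markers of oligodendrocyte precursors could not be read, since none of the list was on the panel.

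Astrocyte genes moved in both directions. Of 13 genes of resting astrocytes, 5 were higher and 5 lower in the striatum/thalamus (median log2 0.06). Slc1a3 (GLAST), the glutamate transporter abundant in Bergmann glia, was 20331, 17019, 15279 and 17929 normalised counts in the cerebella of pups 2, 3, 6 and 8 and 9829, 8440, 7949 and 9603 in the striatum/thalamus, 1.97-fold higher in the cerebellum (log2 -0.98, SE 0.05, adjusted p = 4.69e-06). Egfr, the epidermal growth factor receptor, was 2.19-fold higher there. Gdpd2, a membrane phosphodiesterase (2.77-fold), and Gja1, connexin 43 of astrocyte gap junctions (1.37-fold), were higher in the striatum/thalamus. Without pup 2, 3 rather than 5 genes of the list were called higher.

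Of 30 genes of reactive astrocytes, 7 were higher and 7 lower (median log2 0.07). Higher in the cerebellum were Serping1, the inhibitor of complement C1 (3.10-fold), B3gnt5, a glycosyltransferase (3.05-fold), Ptx3, a soluble pattern receptor (2.80-fold, 142 ± 13.0 against 50.7 ± 0.97 normalised counts), and Vim, the intermediate filament vimentin, which radial glia also hold (2.58-fold). Amigo2, an adhesion protein, was 2.80-fold higher in the striatum/thalamus. With reference-gene scaling 13 members were called higher.

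Homeostatic microglia genes were mostly higher in the striatum/thalamus. Of 21 tested, 15 were higher and 1 lower (median log2 0.46), and 1 member, the fructose transporter Slc2a5, reached 2-fold (2.21-fold, 120.4 ± 27.3 against 54.6 ± 13.3 normalised counts). P2ry12, the purine receptor that guides microglial processes, was 903, 889, 881 and 823 normalised counts in the striatum/thalamus of pups 2, 3, 6 and 8 and 339, 445, 536 and 513 in the cerebella, 1.93-fold higher (log2 0.95, SE 0.12, adjusted p = 0.000316). Tmem119, a membrane protein that marks microglia (1.87-fold), Gpr34, a lysophospholipid receptor (1.88-fold), and Cx3cr1, the receptor of fractalkine (1.85-fold), were higher too. Ligand and receptor of the fractalkine pair were thus both higher in the striatum/thalamus, by 4.08-fold and 1.85-fold. Across libraries the cerebellum of pup 2 had the lowest list level, 0.47 log2 units below the 8-library mean. The other cerebella were 0.10 to 0.20 below it. With pups 6 and 8 alone, in a fit added after the data were seen, 9 of the 21 genes were called higher. In that smaller fit the genes called higher over the whole panel fell from 235 to 163.

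Genes of activated microglia and phagocytosis were split, with 8 of 23 higher and 3 lower in the striatum/thalamus (median log2 0.21). Igf1, a growth factor that microglia supply to the developing brain, was 98.8, 122, 129 and 151 normalised counts in the striatum/thalamus and 42.1, 46.8, 50.3 and 50.6 in the cerebella, 2.62-fold higher (adjusted p = 3.65e-05). Spp1, osteopontin, was 2.33-fold higher in the cerebellum (429 ± 72.4 against 186 ± 54.1). The lysosomal protease Ctss was 1.47-fold higher in the striatum/thalamus (568 ± 95.3 against 391 ± 89.9).

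Of 15 complement and Fc receptor genes, 7 were higher (4 without pup 2) and 2 lower, with a median log2 of 0.25. C3, the central complement component, was 119, 120.3, 114 and 135 in the striatum/thalamus and 34.8, 26.7, 35.9 and 33.7 in the cerebella, 3.72-fold higher (log2 1.90, SE 0.13, adjusted p = 1.78e-05), with the cerebella of pups 2 and 3 at background. Itgam (CD11b), the complement receptor of microglia, was 1.71-fold higher, and did not pass with pups 6 and 8 alone (log2 0.55, adjusted p = 0.0673). Fcgr2b, the inhibitory Fc receptor, was 1.43-fold higher in the cerebellum, but not past the threshold with pups 6 and 8 alone (log2 -0.40, adjusted p = 0.0669). That smaller fit called fewer genes across the whole panel as well (163 higher and 190 lower). Serping1 is described with the astrocyte genes.

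Antigen presentation and interferon genes showed no common direction, with 6 of 24 higher and 6 lower (median log2 0.06). Cd74, the chaperone of class II molecules, was 125 ± 19.5 normalised counts in the striatum/thalamus and 59.7 ± 23.1 in the cerebellum (2.13-fold). Ifitm2, an interferon-induced membrane protein, was 2.28-fold higher in the cerebellum.

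**Figure D4:**
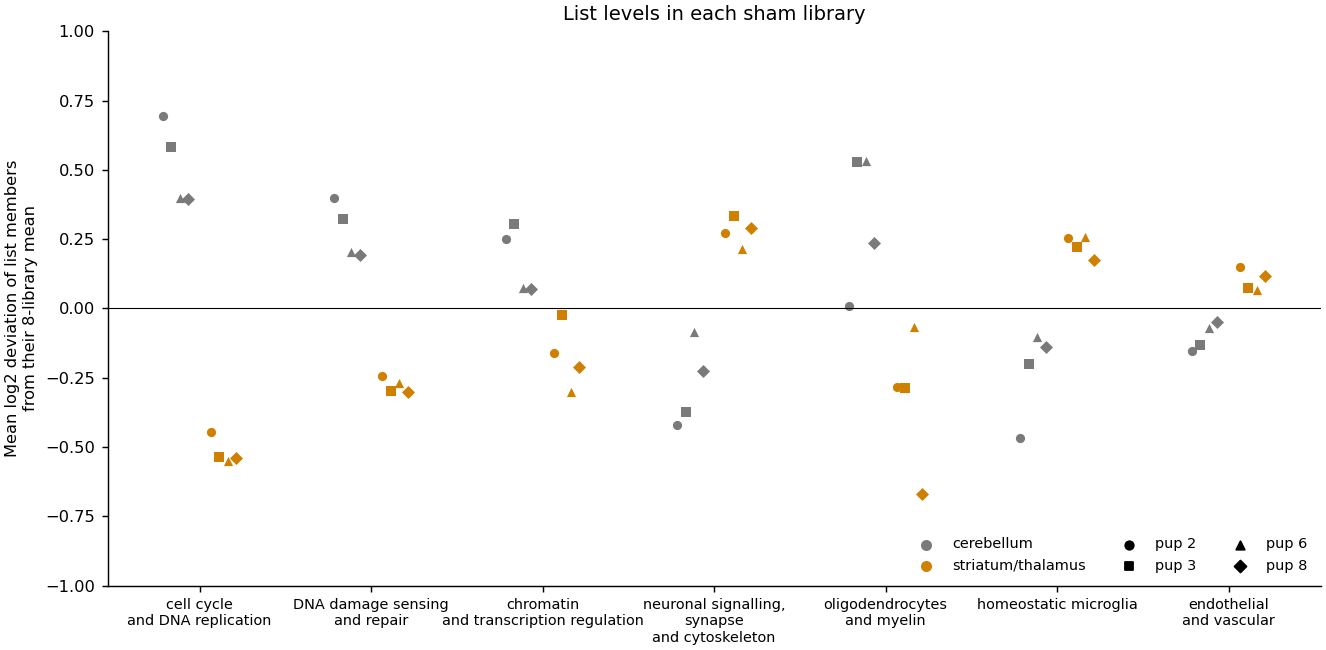
Level of 7 gene lists in each sham library, as the mean over tested members of the log2 normalised count minus the gene's 8-library mean (vertical); colour marks the region and symbol shape the pup. The regions are fully apart for cell cycle genes (0.40 to 0.70 against -0.55 to -0.45), and the cerebella span -0.47 (pup 2) to -0.10 (pup 6) for homeostatic microglia.

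Vascular genes differed little. Of 15 endothelial and vascular genes, 5 were higher and 0 lower in the striatum/thalamus by edgeR (median log2 0.19), with no member at 2-fold. Cldn5, the tight junction protein claudin 5 of the blood-brain barrier, was 1754 ± 75.5 normalised counts in the striatum/thalamus and 1803 ± 115 in the cerebellum, log2 -0.04 (SE 0.06, adjusted p = 0.566). Ly6a, a surface protein of endothelium (1.60-fold), Itga6, a laminin receptor (1.54-fold), and Vegfa, the endothelial growth factor made by neighbouring cells (1.30-fold), were higher, as were Flt1, a receptor of Vegfa (1.25-fold), and Slc2a1, the glucose transporter of the barrier (1.21-fold). Flt1 did not pass with DESeq2 (adjusted p = 0.0631), without pup 3 (0.0682), or with pups 2 and 3 (0.0556) or pups 6 and 8 (0.0918) alone. Slc2a1 did not pass without pup 3 (0.0562) or with pups 6 and 8 alone (0.099). Fits with fewer pups also called fewer genes across the whole panel. The number higher was 9 with reference-gene scaling and 3 without pup 3.

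Of 18 blood leukocyte genes tested, 10 were at background in both regions, and 6 were called higher and 2 lower in the striatum/thalamus (median log2 0.41, beside the 0.31 of the negative control probes). The list was written for cells that the tissue may hold in its vessels, yet neurons also transcribe Cd24a and Kit. Cd24a, described above, and Kit, the stem cell factor receptor of mast cells and of cerebellar interneurons, were higher in the cerebellum (3.88-fold and 2.25-fold). Hdc, the histamine-forming enzyme, was 187 ± 70.5 normalised counts in the striatum/thalamus and 79.8 ± 2.35 in the cerebellum (2.28-fold), and Blnk, an adaptor of B cells and myeloid cells, 99.4 ± 16.2 against 45.2 ± 9.03 (2.20-fold). The number higher was 3 with DESeq2 or without pup 3, and 2 when genes under the negative control limit were removed.

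Stress, death and signalling lists were mixed. Of 46 apoptosis and necroptosis genes, 12 were higher and 19 lower in the striatum/thalamus (median log2 -0.15). The activators Hrk (3.66-fold higher) and Bcl2l11, which encodes BIM (2.37-fold lower), lay on opposite sides, and Birc5, survivin, a protein of cell division as well as an inhibitor of apoptosis, was 2.31-fold lower. Of 61 genes of NF-kappaB, Toll-like receptor and cytokine signalling, 19 were higher and 13 lower (median log2 0.14), and 10 were at background in both regions. Nfkbie, an inhibitor of NF-kappaB (3.87-fold), together with Socs3, which damps signals from cytokine receptors (3.66-fold), were higher in the cerebellum. Socs3 was 179 ± 13.9 normalised counts there and 49.1 ± 8.14 in the striatum/thalamus.

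Of 13 immediate early genes, the fast responders to neuronal activity and stress, 4 were higher and 3 lower (median log2 0.17). Egr1, a zinc finger factor, was 635, 739, 680.3 and 625 normalised counts in the striatum/thalamus of pups 2, 3, 6 and 8 and 303, 251, 310.1 and 366 in the cerebella, 2.19-fold higher, and the synaptic regulator Arc was 1.87-fold higher but did not pass in the fit of all 24 libraries (adjusted p = 0.0598). Gadd45a, a growth arrest gene, was 2.28-fold higher in the cerebellum, and Jun, a subunit of AP-1, was at log2 -0.09 (SE 0.05, adjusted p = 0.151). Of 19 hypoxia and oxidative stress genes, 11 were higher and 5 lower (median log2 0.32), none of the higher ones by 2-fold. The glutathione transferase Gstm1 (1.77-fold), the peroxidase Prdx1 (1.68-fold) and the purine salvage enzyme Hprt (1.61-fold) were higher in the striatum/thalamus, and the histone demethylase Kdm3a was 1.66-fold higher in the cerebellum, beside Ccng2. Among 17 autophagy and lysosome genes, 5 were higher and 6 lower (median log2 0.08). The cargo receptors went opposite ways, with Optn 2.55-fold higher in the cerebellum and Sqstm1 (p62) 1.46-fold higher in the striatum/thalamus, where the autophagosome protein Map1lc3a was 1.77-fold higher as well.

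Growth factor, Wnt, Notch and TGF-beta genes were also mixed, with 4 of 12 higher and 4 lower (median log2 -0.06), and Fgf13 and Igf1 were among the 3 higher by 2-fold or more. Tgfa, a ligand of Egfr, was 1.83-fold higher in the striatum/thalamus (734 ± 23.1 against 407 ± 87.2 normalised counts), while Egfr itself was 2.19-fold higher in the cerebellum.

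The region difference was then measured in the 4 HIBI pups, in which the whole pup had hypoxia and the right carotid artery was closed. No library was shared with the sham comparison. Of 727 genes tested, 128 (17.6%) were higher and 185 (25.4%) were lower in the striatum/thalamus of HIBI pups. Of the 472 genes called in sham pups, 117 of the 235 higher and 179 of the 237 lower were called in the same direction in HIBI pups by edgeR, 0 were called in the opposite direction, and 466 had the same sign. Of the 112 genes with a difference of 2-fold or more, 104 were called again. The number higher in HIBI pups depended on the fit, at 196 with library totals and 234 in the fit of all 24 libraries, and the number lower was 123 without pup 5 and 116 without pup 7.

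Of the 29 cell cycle genes, 24 were lower in the striatum/thalamus of HIBI pups, with a median log2 of -0.93, and Top2a had a log2 fold change of -1.98 (sham -2.13). Of the 21 myelin genes, 16 were lower, with a median log2 of -1.10 (sham -0.66), and Mal had a log2 fold change of -2.50 (sham -1.92). Neuronal genes had 18 of 32 higher and 6 lower with a median of 0.31 (sham 0.57), and homeostatic microglia 7 of 21 higher and 0 lower by edgeR with a median of 0.33 (sham 0.46). Over the genes higher in sham pups, the median log2 fold change was 0.65 in sham and 0.38 in HIBI pups, and 213 of 234 were smaller in HIBI pups. Over the genes lower in sham pups the medians were -0.60 and -0.54, and 156 of 237 were nearer to 0. Since these genes were picked by their sham values, smaller values in the other arm are a description with no test.

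Levels of both regions are given for genes whose values stood apart between arms, with the normalised counts of each arm scaled on its own. Slc17a6 was 4780 to 6141 normalised counts in the HIBI cerebella and 7957 to 10223 in the HIBI striatum/thalamus, against 2615 to 5539 and 12458 to 14505 in sham pups. Ttr stood at 3063 and 2375 in the striatum/thalamus of HIBI pups 4 and 5 and at 76.1 and 69.1 in pups 1 and 7, and its region difference did not pass in HIBI pups (log2 -1.40, adjusted p = 0.522). Eomes was 187, 302, 213 and 506 in the HIBI cerebella of pups 1, 4, 5 and 7 and 59.3, 71.0, 92.2 and 62.4 in their striatum/thalamus, a region difference of log2 -1.99 beside -4.15 in sham pups.

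In the test of the difference itself, the interaction of region and arm over 16 libraries, 0 of 725 genes (0%) passed with edgeR or with limma-voom, the smallest adjusted p was 0.0682 (edgeR, for Eomes and Slc17a6), and 84 genes had an unadjusted p under 0.05 with edgeR and 88 with limma-voom. Thus no gene was shown to have a different region effect after injury, which does not show that the effects were equal.

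**Figure D5:**
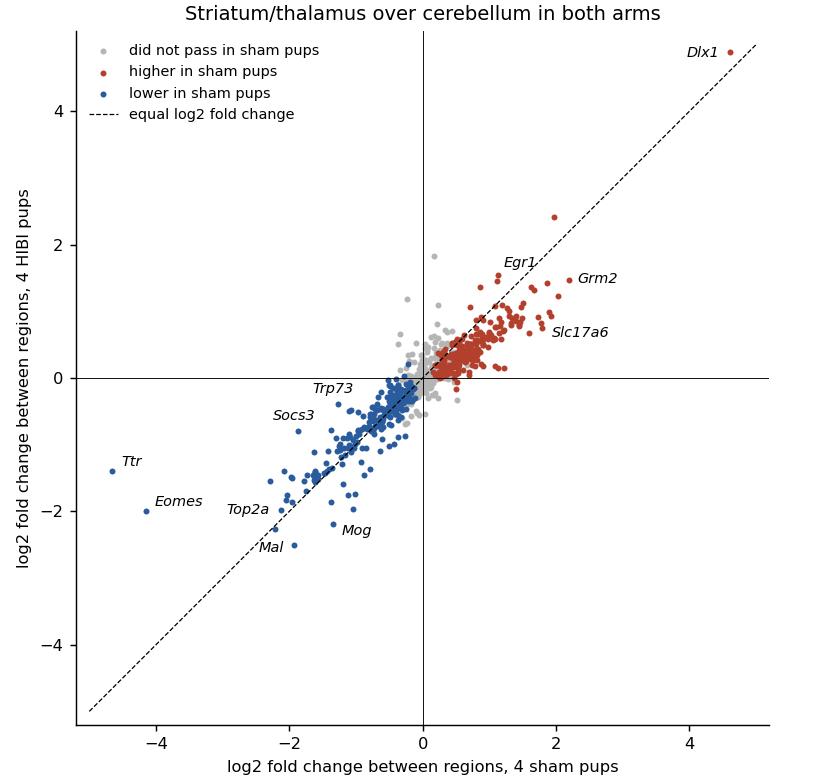
Log2 fold change between regions (striatum/thalamus over cerebellum) in 4 sham pups (horizontal) and in 4 HIBI pups (vertical) for each tested gene, coloured by the sham call; the dashed line marks equal values. Dlx1 lies near the line, most genes higher in sham pups lie below it (213 of 234), and Ttr (-4.66 and -1.40) and Eomes (-4.15 and -1.99) lie far from it.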

How the data were processed

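The authors deposited raw barcode counts per probe, not normalised, from RNA of frozen tissue (RNeasy Lipid kit) hybridised to the panel. Settings of the counting software are not given in the sources used here. Counts of 757 endogenous, 13 reference, 6 positive and 8 negative probes were read for each library, and the probe class came from the authors' regional table, whose group means, ratios and p-values are their own injury comparisons and were not used.

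Endogenous genes with at least 20 counts in at least 4 of the 8 libraries (725 of 757) were fitted with edgeR 4.0.16 in R 4.3.3 (TMM scaling, quasi-likelihood F test) with the pup as a block, since both regions came from the same animal. Deviations from the region means correlated within pups at r = 0.184 to 0.58. Benjamini-Hochberg adjustment ran over all genes tested, at a threshold of 0.05, and every adjusted p above is from this fit unless a tool or setting is named. SE is the log2 fold change divided by the square root of F. Alternatives used DESeq2 1.42.0, limma 3.58.1, other scalings and filters, and fits without each pup. Fits on simulated counts with known changes were checked first.

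A gene was at background in a region when every library there was at or below the mean plus 2 SD of its own negative probes, and a bound ("at least") sets the other region against the higher of that limit and the gene's own level, per library. Genes named were the 12 largest in each direction among those that passed with the same sign in all 4 pups, up to 5 members per list that passed, up to 2 that did not (by mean count) and the region markers. Sox10, Cks1b and Mcm2 were named after their values were seen, and some genes that the rule names are not reported here. The comparison and the gene lists were chosen with earlier results of these data known. Promoters came from RefSeq (GRCm38.p6), where 565 of 725 genes matched by symbol. Pups are separate animals, and counts cover the panel only.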

Additional observations from a re-analysis of the deposited data

Results flagged for a closer look

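Among 190 groups of 4 libraries, 8 had a highest or lowest library set far apart from the other 3 by Dixon's 95% criterion, where chance gives about 1 group in 20. In the striatum/thalamus, pup 3 was high for Cx3cl1 (1153 normalised counts, the others 981 to 1003) and for Nrgn (1997.5, the others 1269 to 1325). Pup 8 was high for Ttr (159, the others 74.4 to 84.1) and low for Brca1 (49.7, the others 60.7 to 61.6). Pup 6 was high for Fancd2 (43.6, the others 32.3 to 33.6) and low for Sqstm1 (3303.5, the others 3634 to 3689). In the cerebellum, pup 2 was low for Tmem119 (125, the others 192 to 205) and high for Hdc (83.2, the others 78.3 to 79.1).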

How the results depend on the processing

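The number of genes higher and lower was 235 and 237, and ranged from 201 to 284 and from 203 to 240 over the other scalings, tests and filters. No called gene changed sign under any of these or without any pup, and 108 to 112 of the 112 genes at 2-fold or more were called each time. With reference-gene scaling 58.3% of calls were higher, against 49.8%, and the median log2 fold change of all genes was 0.139. Without the pup block (no pairing), 239 genes were higher and 232 lower, and 458 of the 472 calls were kept; among the genes named, Nrgn was lost and Parp1 passed (adjusted p = 0.0371, edgeR). With the negative control mean subtracted, 80 genes rather than 48 were higher by 2-fold or more. Leaving out 1 pup gave 204 to 227 higher and 214 to 231 lower genes, with 39 to 55 and 61 to 68 at 2-fold. In fits added after the data were seen, 203 and 204 were called with pups 2 and 3 alone, and 163 and 190 with pups 6 and 8 alone, when 9 rather than 15 homeostatic microglia, 2 rather than 7 complement, 6 rather than 12 apoptosis and 12 rather than 19 NF-kappaB genes were higher. Of the counts of list members, 3 moved by over 1.5 times with pups 2 and 3 alone and 11 with pups 6 and 8 alone, those named included. Of autophagy genes, 8 rather than 5 were higher with reference-gene scaling. In HIBI pups, 196 genes were higher with library totals and 234 in a fit of all 24 libraries, against 128, and leaving out 1 HIBI pup gave 91 to 134 higher and 116 to 192 lower genes (123 without pup 5, 116 without pup 7). Among genes that did not pass, Cldn5 turned to log2 0.05 (0.0525) with reference-gene scaling, 0.022 with the negative mean subtracted and 0.030 with pups 2 and 3 alone, and Gria2 to 0.0073 with reference-gene scaling. The cause was not tested. Genes below about 100 normalised counts had the least room over background.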
